A study of Mus musculus with 3 samples.

Results

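The genes of the Gli transcription factors, Gli1, Gli2 and Gli3, and of their binding partner Sufu were examined for TBX5 peaks in the fetal mouse lung. A peak was counted for a gene when its summit lay inside the gene body, from the first to the last annotated base, or when the nearest end of any protein-coding gene, within 100 kb of the summit, belonged to that gene. This gave 31 peaks of the 28381 in the deposited list: 15 for Gli2, 9 for Gli3, 4 for Gli1 and 3 for Sufu. No peak was counted for more than one of the 4 genes. Coordinates are those of mouse build mm10.

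The list came from chromatin immunoprecipitation and sequencing (ChIP-seq), in which DNA cross-linked to a protein is pulled down with an antibody and read. The samples were whole lungs of CD-1 embryos, an outbred mouse stock, at E14.5, an embryonic stage at which the airways branch, with 1 lung per replicate. The labels name no mutation, transgene or treatment. There were 2 libraries made with an antibody to TBX5 and 1 library of input chromatin, but they are represented by a single list of peaks, without values for single libraries. The spread between replicates, and the depth of each library, are therefore unknown, and peaks within the list are not replicates. No test was run, and each comparison here describes this list. The titles of all 3 libraries name lung, while in the source field the second ChIP library and the only input are given as heart. Which tissue those 2 libraries came from was not tested, and it bears on the peaks and folds of the whole list, in which the libraries cannot be told apart.

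Hedgehog ligands such as Shh are made by the lung epithelium and act on the mesenchyme around it. Without ligand, the receptor Ptch1 holds the membrane protein Smo inactive, Sufu binds the Gli proteins in the cytoplasm, and Gli3 in particular is cut to a repressor. With ligand, Smo is active, Gli2 and Gli3 leave Sufu as full-length proteins, and Gli2 acts as the main activator. Gli1 is itself a transcriptional target of the pathway, is an activator, and is widely used as a readout of hedgehog signalling. TBX5 is a T-box transcription factor of lung mesenchyme and heart.

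Each of the 4 genes had at least 1 peak within 1 kb of one end, and 0 peaks within 1 kb of the other. Among all 21631 protein-coding genes, 22.6% had a peak within 1 kb of either end and 0.925% of both ends. The RefSeq promoter table (GRCm38.p6, the assembly of mm10) holds Gli2, Gli3 and Sufu, and for these genes the end with the peak was the start of transcription. Of all protein-coding genes with an entry in that table, 23.2% had a peak within 1 kb of a start. Gli1 is not in the table, so its direction of transcription was not used. Its peaks are placed by the last annotated base, which for Gli1 means the base of highest coordinate. That base may be the start of transcription or the far end.

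The stretches before the starts of Sufu and Gli3 are shown because a called peak covered all 250 bases of each. They are printed in the direction of transcription and end at the base before the start. Capitals mark the letters AGGTGT, the core of the site that T-box factors recognise.
Sufu, chr19:46396646-46396895, plus strand: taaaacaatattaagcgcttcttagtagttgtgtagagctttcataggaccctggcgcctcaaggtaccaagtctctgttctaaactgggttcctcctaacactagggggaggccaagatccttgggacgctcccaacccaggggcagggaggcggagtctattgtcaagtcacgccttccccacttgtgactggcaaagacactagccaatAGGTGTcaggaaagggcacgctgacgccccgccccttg
Gli3, chr13:15463473-15463722, plus strand: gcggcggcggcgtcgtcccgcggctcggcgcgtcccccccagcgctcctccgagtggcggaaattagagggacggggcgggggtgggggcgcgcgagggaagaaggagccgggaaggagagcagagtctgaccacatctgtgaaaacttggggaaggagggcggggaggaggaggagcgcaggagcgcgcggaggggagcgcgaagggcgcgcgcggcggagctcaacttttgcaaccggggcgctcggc

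In the Sufu sequence AGGTGT stood once, from 38 to 33 bases before the start. The summit of the peak lay 41 bases before the start, so the match began 3 bp from it and ended 8 bp from it. The Gli3 sequence held no match to AGGTGT on either strand. The same letters, on either strand, occurred in 13.8% of all 32619 promoter windows of 300 bases (250 before to 50 after a start). They occurred in 11.2% of the 4335 windows that overlapped a peak and in 14.2% of those that did not, so this match is a description of the Sufu window and not evidence of binding there. Neither the longer T-box sequence AGGTGTGA, which contains AGGTGT, nor the Gli site GACCACCCA was in the windows of Sufu, Gli3 or Gli2 on either strand. They occurred in 1.28% and 0.254% of all windows.

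The peak at the start of Sufu, chr19:46396608-46397114, had 7.14-fold enrichment, a −log10 q of 10.5 and a width of 507 bp. Fold enrichment compares the signal at the summit with the background around it, and q is a p-value adjusted over the genome, both as given by the authors' peak caller. This peak had rank 11059 of 28381 by −log10 q. Peaks of rank 5000 or better, with a −log10 q of at least 21.3, are called strong here and make up 17.6% of the list. The peak at the start of Gli3, chr13:15462830-15463796, was higher in both measures, with 11.2-fold enrichment, a −log10 q of 32.7 and rank 2946, a strong peak. It was 967 bp wide, and 1.17% of the peaks in the list were wider. Its summit lay 502 bp before the Gli3 start, inside the long non-coding RNA gene Gm6556, which overlaps that start, so the list does not tell which gene the peak belongs to.

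At Gli2, the summit nearest to the start in the promoter table lay 385 bp before it. That peak, chr1:119053989-119054177, had 4.56-fold enrichment and a −log10 q of 4.63, lower than at the starts of Gli3 and Sufu. It ended short of the promoter window by 119 bases. At 189 bp it was as narrow as the narrowest peak of the list. A stronger peak of 8.32-fold (−log10 q of 16.2) lay 1.17 kb after the start. It was followed by peaks of 4.74, 5.87 and 8.79-fold at 1.96, 5.49 and 6.32 kb. The first part of Gli2 thus held a row of 5 peaks of 4.56 to 8.79-fold, none of them strong, rather than a single high one.

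**Figure D1:**
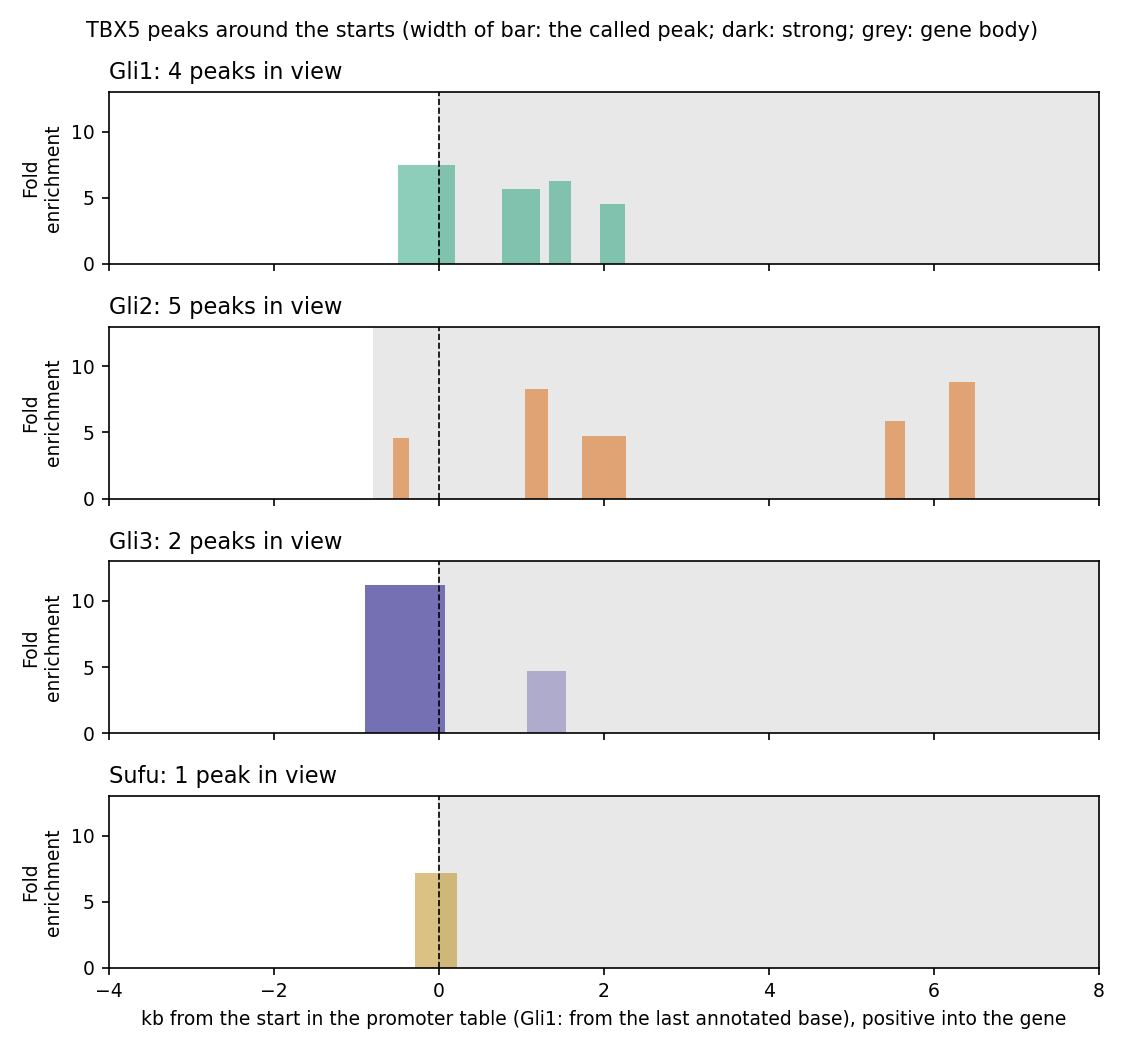
Called peaks between 4 kb before and 8 kb after the start in the promoter table (dashed line; for Gli1 the last annotated base), with distance in kb on the x axis and fold enrichment on the y axis. Each bar spans 1 peak, dark bars are strong peaks and grey marks the gene body; the Gli3 peak at the start reaches 11.2-fold, and the Gli1 and Gli2 peaks lie between 4.56 and 8.79-fold.

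Gli1, the readout gene of the pathway, had all of its 4 peaks within 2.20 kb at one end of its 11.7 kb body (chr10:127329882-127341579). The strongest, chr10:127341384-127342077, covered the last annotated base, with its summit 53 bp outside the gene, 7.50-fold enrichment and a −log10 q of 12.8. The other 3 lay inside the gene at 0.924, 1.44 and 2.14 kb from that base, with 5.68, 6.24 and 4.56-fold enrichment. None was above the 10-fold level that 21.2% of all peaks reached. At its other end Gli1 overlaps Arhgap9, and no peak lay there.

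The 4 peaks of Gli1, none of them strong, made a dense group for so short a gene. A peak would count for Gli1 anywhere in a stretch of 19.6 kb, which gives 20.4 peaks per 100 kb (exact 95% Poisson interval 5.56 to 52.3, covering counting error only). This was rank 41 of the 20136 protein-coding genes with a stretch of at least 10 kb. Among the 11009 genes with a stretch under 50 kb, 26.0% had a peak and 0.917% had 4 or more. The density of Gli1 rested on weak peaks: by −log10 q, 1 of its 4 was in the upper 50% of the list (14191 peaks), and with those alone the density was 5.10 per 100 kb.

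Gli2, the main activator of the pathway, had the highest peak of the 4 genes. It lay inside the gene 76.7 kb after the start, at chr1:118976369-118977124, with 39.4-fold enrichment, a −log10 q of 158 and a width of 756 bp. It had rank 115 by −log10 q, within the top 0.405% of the list. When the 9024 protein-coding genes with a peak were ordered by their strongest peak, Gli2 had rank 89. No other Gli2 peak came near it: the next, at chr1:119035242-119035702 and 18.2 kb after the start, had 12.8-fold enrichment and a −log10 q of 27.4.

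These were the 2 strong peaks of Gli2. The remaining 13 Gli2 peaks had 3.59 to 9.61-fold enrichment. Besides the 5 around the start, they fell into small groups along the 220.3 kb body. Peaks of 5.65 and 5.84-fold lay at 19.6 and 27.4 kb, and one of 6.87-fold lay at 70.9 kb, 5.74 kb from the highest peak.

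A second group lay deeper in Gli2, with 4 peaks between 137 and 151 kb after the start. The highest of these, chr1:118907626-118907906, had 9.61-fold enrichment and a −log10 q of 15.9. The others had 7.02, 5.65 and 4.62-fold enrichment. The weakest Gli2 peak, of 3.59-fold, was the one outside the gene, 8.32 kb past its far end. With 15 peaks Gli2 had rank 111 of 21631 by count, and 9 of the 15 were in the upper 50% of the list by −log10 q. Its stretch was long (394.8 kb), and 5.38% of the 2247 genes with a stretch of at least 200 kb had 15 or more. Its density was 3.80 per 100 kb (exact 95% Poisson interval 2.13 to 6.27) over the stretch and 6.35 over the gene body alone, where 14 of the 15 peaks lay.

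Gli3, the main repressor of the pathway, had fewer peaks than Gli2, but their median fold was higher, 9.45 against 5.87. Of its 9 peaks, 4 reached 10-fold, against 2 of 15 for Gli2. The strongest lay deep inside the gene, 133 kb after the start, at chr13:15596801-15597145, with 16.7-fold enrichment, a −log10 q of 37.5 and rank 2490. A second peak 2.66 kb further on, chr13:15599373-15600167, had 10.8-fold enrichment and a −log10 q of 18.4, below the strong level. The third, of 7.45-fold, lay 114 kb after the start. These 3 peaks were over 100 kb from the end of any protein-coding gene and count for Gli3 because they lie inside its 266.3 kb body.

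Outside the body, a peak of 11.3-fold (−log10 q of 19.7) lay 16.5 kb before the Gli3 start, at chr13:15446846-15447534. Past the far end, peaks of 9.45, 4.65 and 6.78-fold lay 11.9, 29.1 and 29.5 kb from the last base. A peak of 4.71-fold lay 1196 bp inside the start. Thus 5 of the 9 Gli3 peaks lay outside the gene, against 1 of 15 for Gli2. The stretch of Gli3 was the longest of the 4, at 466.3 kb, and its density the lowest, at 1.93 per 100 kb (exact 95% Poisson interval 0.883 to 3.66). Of the genes with a stretch of at least 200 kb, 79.3% had a peak and 17.0% had 9 or more peaks. Gli2 and Gli3 had 2 strong peaks each, and 20.9% of such genes had 2 or more.

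Sufu, whose product restrains the Gli proteins, had 3 peaks far apart from each other. The one strong peak lay inside the gene 25.8 kb after the start, at chr19:46422481-46423304, with 12.7-fold enrichment, a −log10 q of 23.6 and a width of 824 bp. Its rank by −log10 q was 4432, so it was the strong peak closest to the limit of 5000. The third peak, of 3.90-fold, lay 4.03 kb before the last base of the 91.9 kb body. The density was 3.03 per 100 kb (exact 95% Poisson interval 0.626 to 8.86). Of genes with a stretch of 50 to 200 kb, 52.3% had a peak, 17.2% had 3 or more and 15.2% had a strong peak. The neighbour Actr1a ends 1.16 kb before the Sufu start, so the peak at the start lies near both genes.

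**Figure D2:**
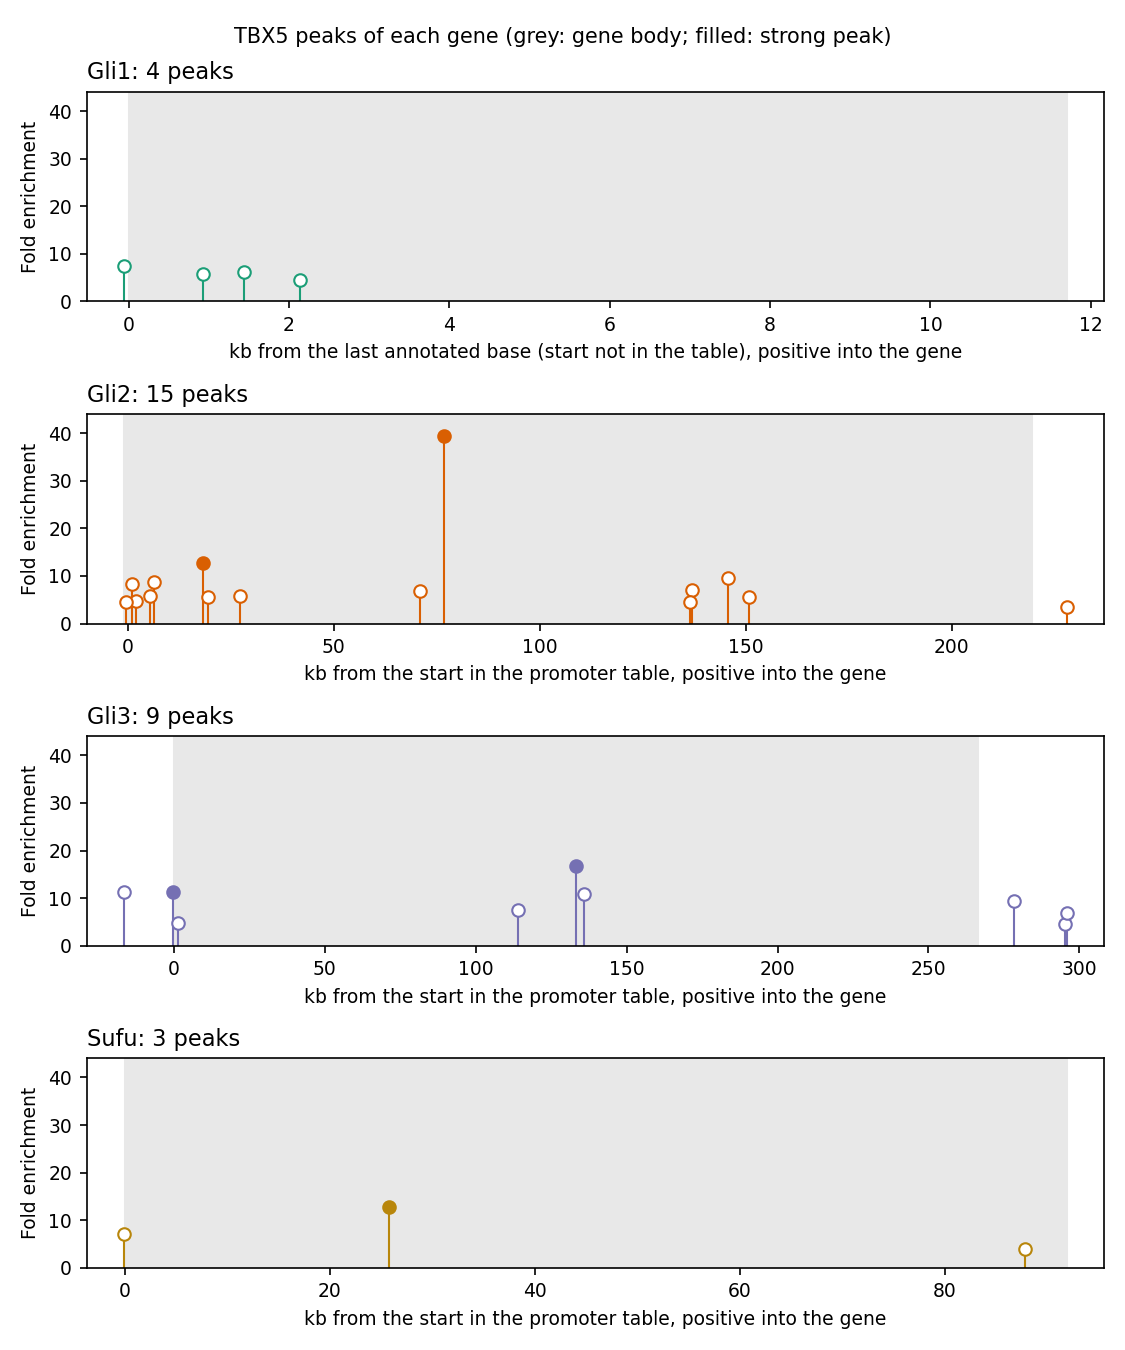
All 31 peaks along the 4 genes, with distance in kb on the x axis (from the start in the promoter table, or from the last annotated base for Gli1; each panel has its own scale) and fold enrichment at the summit on the y axis. Each stem is 1 peak, filled circles are strong peaks and grey marks the gene body; the Gli2 peak of 39.4-fold stands above all others, and the highest Gli3 peak (16.7-fold) lies near the middle of the gene.

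As a group, the 31 peaks resembled the rest of the list in strength. Their median fold was 6.87 (quartiles 5.20 and 9.53, range 3.59 to 39.4), against 6.27 for all peaks (quartiles 5.07 and 9.22). Of the 31, 5 were strong (16.1%, exact 95% binomial interval 5.45 to 33.7%), against 17.6% of the list. The 5 peaks within 1 kb of a gene end had a median of 7.14-fold, against 5.49-fold for all 4981 such peaks. The 21 peaks inside genes and further from their ends had a median of 6.87-fold, against 6.59-fold for all such peaks.

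**Figure D3:**
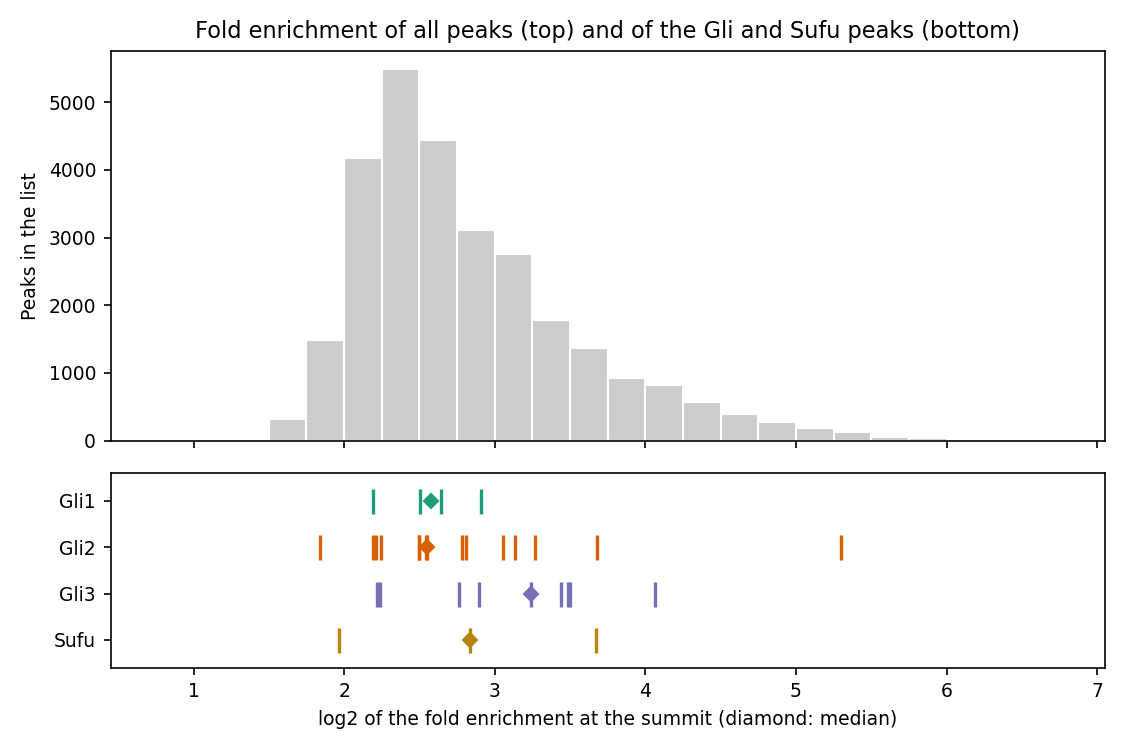
Number of peaks of the whole list by log2 of the fold enrichment (top, bars) and the peaks of each gene on the same axis (bottom, each tick 1 peak, diamonds the medians). The Gli and Sufu peaks lie within the bulk of the list except the Gli2 peak of 39.4-fold, and the Gli3 median (9.45-fold) lies to the right of the others (5.87 to 7.14-fold).

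The peaks lay close to one another. Of the 31, 24 (77.4%) had another summit of the list within 10 kb, against 50.1% of all peaks. This held for all 4 peaks of Gli1, 14 of 15 of Gli2 and 6 of 9 of Gli3, but for none of the 3 of Sufu. Neighbouring peaks share a locus and are not independent of each other. The median width of the 31 was 343 bp, against 291 bp in the list.

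The limit of 100 kb left out 2 peaks, both strong and both near Gli3. Outside gene bodies, the farthest peak that counted lay 29.5 kb from Gli3. The nearest that did not count, yet had a Gli3 end as its nearest protein-coding gene end, lay 333 kb before the Gli3 start (14.1-fold). A second lay at 381 kb. The latter had 30.2-fold enrichment, above the 16.7-fold of the highest peak counted for Gli3, and counting both would raise its strong peaks from 2 to 4. No such peak was possible for Gli1 or Sufu, whose gaps to the neighbouring genes are at most 7.82 kb and 12.8 kb. For Gli2 the gap of 148.9 kb to Tfcp2l1 is also too short. One was possible only in the gap of 361.1 kb to Inhbb, where no peak lay. At the limit of 5000, the weakest strong peak was that of Sufu (−log10 q of 23.6) and the highest peak below it was the Gli3 peak 16.5 kb before the start (−log10 q of 19.7).

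**Figure D4:**
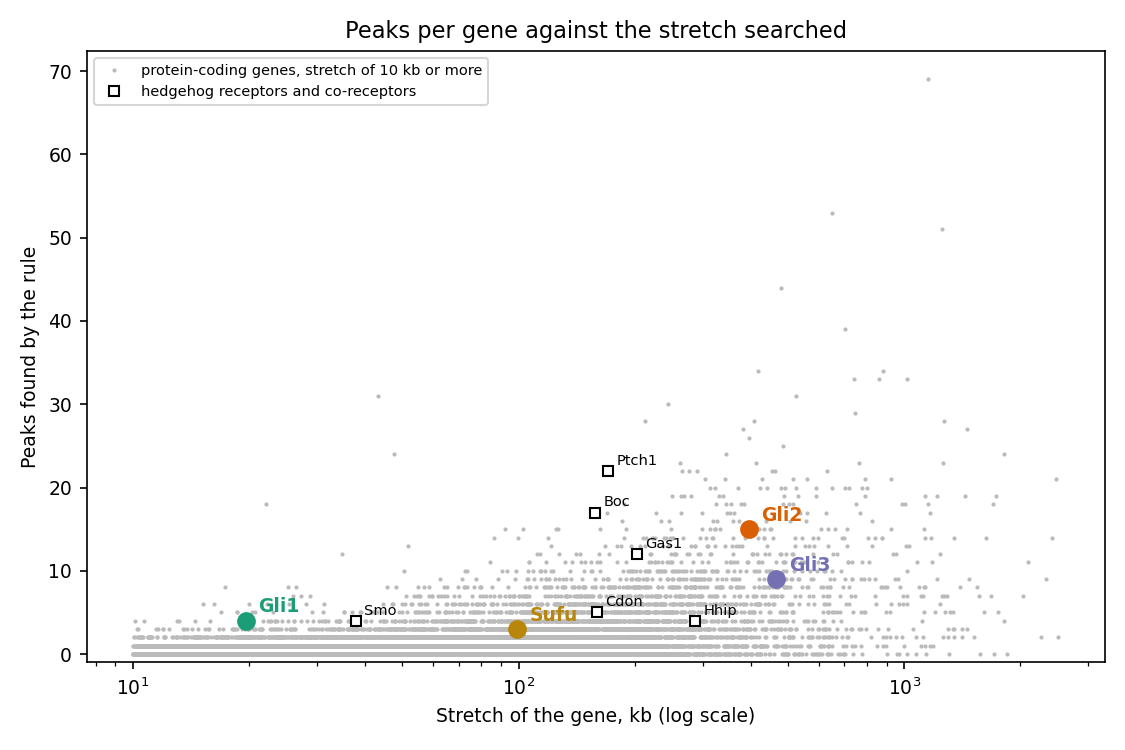
Peaks found by the rule (y axis) against the stretch searched for the gene, in kb on a log scale (x axis). Grey points are the 20136 protein-coding genes with a stretch of at least 10 kb, squares the hedgehog receptors and co-receptors, and coloured circles the 4 genes; Gli1 has 4 peaks in 19.6 kb, Gli3 has 9 in 466.3 kb, and Ptch1 has 22 in 170.6 kb.

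The 4 genes were then set beside the rest of the hedgehog pathway, 30 further genes chosen with earlier results of these data known. Of these 30, 21 (70.0%) had a peak by the same rule and 12 (40.0%) a strong peak. Across all 21631 protein-coding genes the shares were 41.7% for any peak and 11.9% for a strong one. The 30 genes also have longer stretches, with a median of 112 kb against 48.7 kb for all genes, and longer stretches collect more peaks. All 4 genes described here had a peak and 3 had a strong one, but Gli2 and Gli3 have long stretches, and 41.1% of genes with a stretch of at least 200 kb had a strong peak. Among genes with a stretch under 50 kb, where Gli1 belongs, 3.42% had one.

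Strong peaks were found at Gli2, Gli3, Sufu and most receptors, and at none of the other intracellular regulators on the list. Those 13 regulators were Kif7, Spop, Stk36, Gpr161, Tulp3, Prkaca, Gsk3b, Csnk1a1, Btrc, Fbxw11, Evc, Evc2 and Iqce, and 7 of them had a peak of any strength. Kif7, the kinesin that acts with Sufu at the cilium, had 1 peak of 6.19-fold in a stretch of 39.3 kb. The median stretch of the 13 was 81.4 kb, against 246.8 kb for the 4 genes. Of all genes with a stretch of 50 to 200 kb, 52.3% had a peak and 15.2% a strong one. The share of the 13 with a peak, 53.8%, was near the first of these. The difference between these 13 and the 4 genes was not tested. Of the 6 receptor and co-receptor genes, all had a peak and 5 a strong one, with 64 peaks in all.

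Per length, 4 of the 6 receptor and co-receptor genes carried more peaks than each of Gli2, Gli3 and Sufu, the exceptions being Cdon and Hhip. The receptor gene Ptch1 had 12.9 peaks per 100 kb (22 peaks, 7 strong; exact 95% Poisson interval 8.08 to 19.5) and the co-receptor gene Boc had 10.8 (17 peaks, 5 strong; interval 6.28 to 17.3). The interval of Ptch1 lies above those of Gli2 and Gli3, and overlaps that of Sufu. These intervals cover counting error only and treat peaks as independent, which neighbouring peaks are not. Their overlap, or lack of it, is therefore no test between genes. Smo (4 peaks, 1 strong), Cdon (5 peaks, 2 strong) and Gas1 (12 peaks, 1 strong) also had strong peaks. Hhip, a ligand-binding antagonist and, like Gli1 and Ptch1, a target of the pathway, had 4 peaks and none strong. Its density was 1.40 per 100 kb, against 20.4 for Gli1, which had the same number of peaks.

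The ligand genes Shh, Ihh and Dhh had 0 peaks, and both genes on the list whose products modify or release the ligands had strong ones. Hhat, which attaches palmitate to the ligands, had 12 peaks (3 strong, 46.3-fold at the strongest, above the 39.4-fold of Gli2). Disp1, which releases them from the cell, had 7 peaks (2 strong, 26.4-fold). These genes are not alike in length. Ihh and Dhh have stretches under 50 kb, where 26.0% of all genes had a peak. The stretch of Shh lies between 50 and 200 kb, where 52.3% had one. Hhat and Disp1 have stretches of at least 200 kb, where 41.1% had a strong peak. The difference between the ligand genes and these 2 genes was not tested. Of the 9 target genes, all had a peak and 6 a strong one. Their median stretch was 126 kb, with a range from 19.6 kb (Gli1) to 286.5 kb (Hhip). Of all genes with a stretch of 50 to 200 kb, 52.3% had a peak and 15.2% a strong one. Whether the targets differ from genes of like length was not tested. Foxf1, a forkhead factor of lung mesenchyme, had 9 peaks (2 strong, 30.7-fold at the strongest). Mycn had 5 peaks (1 strong, 13.7-fold), and the cyclin gene Ccnd1 had 1 of 4.32-fold. Gli1, Ptch1 and Hhip stand among both the targets and the other roles.

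**Figure D5:**
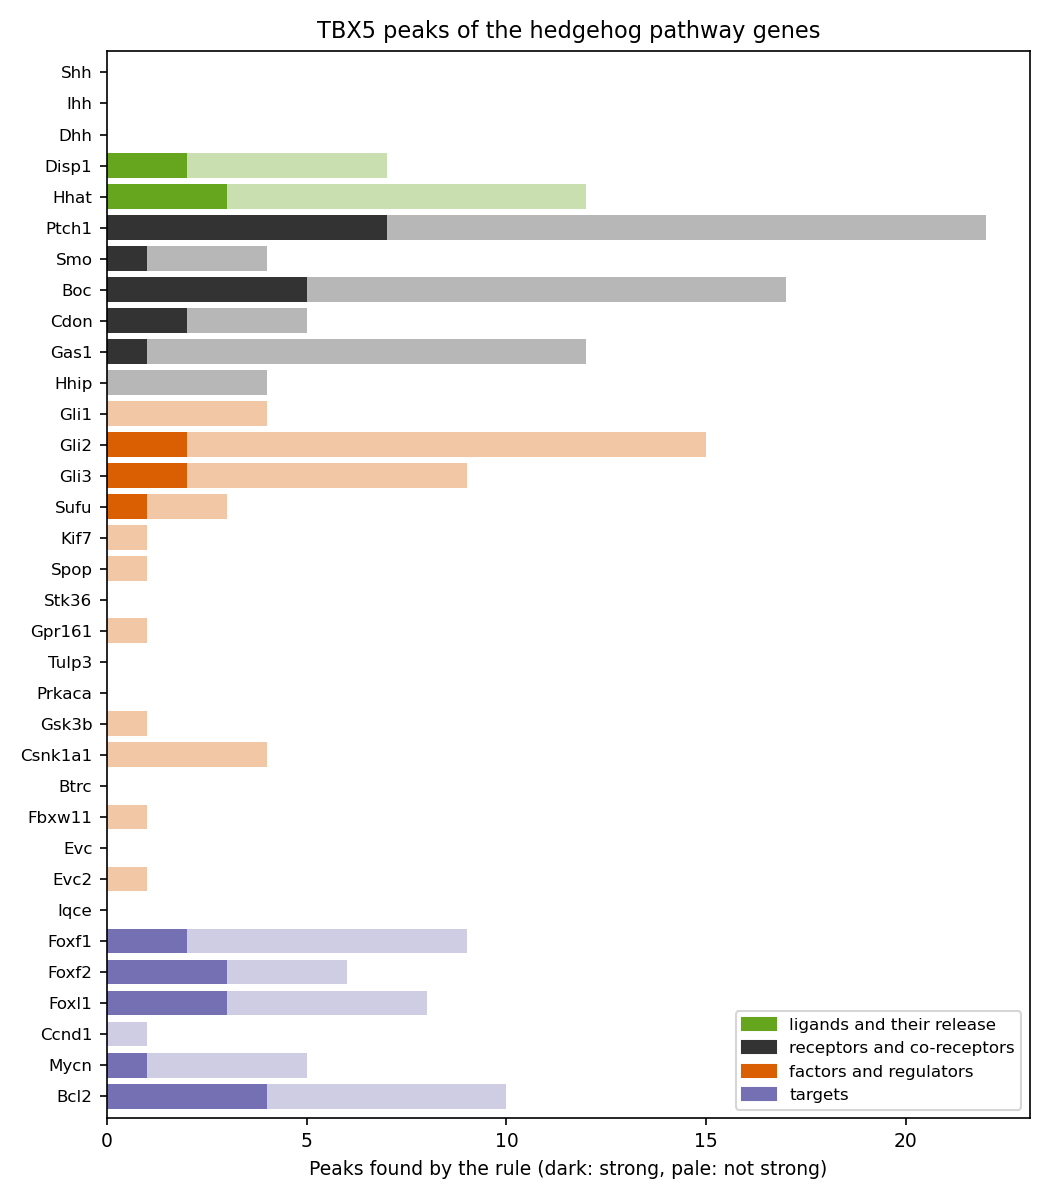
Number of peaks found by the rule (x axis) for each of 34 hedgehog pathway genes (y axis), dark for strong peaks and pale for the rest, coloured by role. Gli1, Ptch1 and Hhip are also targets but are drawn once; Gli2, Gli3 and Sufu are the only genes among the factors and regulators with a dark bar (2, 2 and 1 peaks).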

How the data were processed

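Per the submitters' processing notes, the authors used Bowtie2, SAMtools, MACS2 and build mm10. Their versions and settings, whether libraries were merged, and the role of the input are not given in the sources used. The deposited list has no header. The fold (a ratio) and the −log10 of the q-value at each summit are the authors' values, used within this list alone. The score deposited by the authors follows that −log10 and was not used for results. The deposited summit offset gave the position of each peak.

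Genes and promoters are from RefSeq GRCm38.p6. Each gene's stretch is its body plus the positions nearest to its ends within 100 kb. Assignment was tested on simulated data. Python 3.11.15, pandas 2.3.3 and SciPy 1.17.1 were used. Described in full were the 4 genes with each strong, highest or gene-end peak, and the genes bounding them and a fixed set of pathway genes were named. Hhat, Disp1 and the regulators other than Kif7 were named after their values were seen, and 1 pathway gene is not reported here. Genes and lists were chosen with earlier results of these data known. Coordinates are 1-based.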

Additional observations from a re-analysis of the deposited data

How the results depend on the processing

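Of 23 alternative values for the 4 results over all 4 genes (peaks, strong peaks, share of strong peaks and median fold), 18 stayed within 1.5 times the count or within the 95% binomial interval of the main value. Kept to the upper 50% of the list by −log10 q (14191 peaks), 19 of the 31 remained. Calling those 14191 strong gave 19 strong peaks (61.3%), and calling the 1000 highest strong gave 1 (3.23%), the Gli2 peak. Each of these cuts also changes the share of all 28381 peaks that is kept or called strong, so these values move with the cut itself. With all annotated genes competing, the Gli3 peak 16.5 kb before the start went to the long non-coding RNA gene Gm6556, and the Gli3 peaks at 29.1 and 29.5 kb past the far end to a small nucleolar RNA gene, leaving 28 peaks. A limit of 1 Mb gave 33 peaks, 7 of them strong, through 2 strong peaks of Gli3. A limit of 50 kb could not move a count, because every counted peak outside a gene body lay within 29.5 kb of its gene. Its values are among the 18 that stayed and say nothing about how stable the results are. No paired analysis was possible because the list holds no value per library, and for the same reason no replicate could be left out. Depth is unknown, so absence of a peak may be a limit of depth.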

Other observations

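Each Gli gene lies next to a gene for an inhibin beta subunit, the building block of activins. Inhbe lies 7.82 kb from Gli1, with Inhbc beyond it, Inhbb lies 361.1 kb from Gli2, and Inhba lies 274.2 kb from Gli3. Inhbe, Inhbc and Inhbb had 0 peaks by the same rule, and no peak lay anywhere between Gli2 and Inhbb. Inhba had 3 peaks, 2 of them strong, with 39.1-fold enrichment at the strongest. The gap between Gli3 and Inhba held 6 peaks, 3 of them nearer to Gli3 and 3 nearer to Inhba, and none strong.

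On its other side Gli3 borders a gap of 825.5 kb without a protein-coding gene, which held 5 peaks, 3 of them strong. Of these, the peak at chr13:15082359-15082933 (30.2-fold, −log10 q of 81.9) lay 381 kb before the Gli3 start. The peak at chr13:15130202-15130706 (14.1-fold, −log10 q of 27.8) lay 333 kb before it. No end of a protein-coding gene lay nearer to either peak. The first was higher than any peak counted for Gli3. The list does not tell which gene, if any, these peaks act on.

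Trim8, the gene after Sufu, had 7 peaks in a stretch of 28.7 kb, 2 of them strong (22.0-fold at the strongest), against 3 for Sufu in 98.9 kb. Of the genes with zinc fingers most like those of the Gli proteins, Glis3 had 14 peaks, 1 of them strong (18.9-fold). Glis1 had 6 and Glis2 had 2, while the 5 Zic genes had 0. Of these 8 genes, 37.5% had a peak and 12.5% a strong one, near the 41.7% and 11.9% of all protein-coding genes. Their stretches ran from 11.8 kb (Zic2) to 598.9 kb (Glis3).

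Because the source field names heart for 2 libraries, lists of tissue genes were set side by side. Of 8 genes of lung mesenchyme, 8 had a peak and 4 a strong one. Of 10 genes of cardiac muscle, 4 had a peak and 3 a strong one (Actc1, Nkx2-5 and Ryr2). The shares over all protein-coding genes were 41.7% for any peak and 11.9% for a strong one. The median stretch was 114 kb for the lung genes and 33.0 kb for the cardiac genes, and the share of all genes with a peak rises from 26.0% at stretches under 50 kb to 52.3% at 50 to 200 kb, so the lists are not alike in length. A peak is not a measure of expression, and the tissue of the libraries was not tested by these counts.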
